A study of Mus musculus with 6 samples.

Results

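Major histocompatibility complex (MHC) class II genes and their transactivator Ciita were followed in Ba/F3 cells, a mouse line labelled as interleukin-3-dependent pro-B cells. The 8 members were taken by gene symbol, and every probe set the platform table assigns to one of them was kept. They were Ciita, Cd74, H2-Aa, H2-Ab1, H2-Eb1, H2-DMa, H2-Oa and H2-Ob, 8 of the 18193 genes measured, with 17 of 45037 probe sets. Of these 17, 16 belonged to 1 member alone and 1 was shared between H2-Ob and another symbol. The family was chosen by its measured difference between induced and uninduced cells, which was already known, so that difference is described here without a test.

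All cells of both groups carried a SPAG9-JAK2 fusion, the scaffold protein SPAG9 joined to the tyrosine kinase JAK2, in a retroviral Tet-On system that doxycycline switches on. Induced cells received doxycycline at 500 ng/ml (3 arrays), and uninduced cells received none (3 arrays). Total RNA was taken 48 hours later and measured on Affymetrix mouse 3′ expression arrays. There were no cells given the drug but lacking the fusion, so an effect of doxycycline and one of the fusion cannot be told apart. The sources used here do not say whether the line was 1 clone.

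MHC class II proteins display peptides from endosomes to CD4 T cells. CIITA does not bind DNA itself but docks on factors assembled at the X and Y boxes of class II promoters, and in many cell types interferon-gamma switches Ciita on through IRF1. Newly made class II dimers are held by the invariant chain CD74, H2-DM exchanges its remnant for other peptides, and H2-O, a dimer of the H2-Oa and H2-Ob products found mainly in B cells, restrains H2-DM.

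Signals are intensities on a linear scale, and differences are of log2(signal + 16), induced minus uninduced, with standard errors (SE) from limma. The labels do not say whether the 3 cultures of a group came from separate experiments, so errors measure only the spread between them. In RNA from whole cultures, fewer expressing cells and less RNA per cell cannot be told apart. Median signals were 46.2 to 63.6 over the 6 arrays. Both replicate 1 arrays stood apart from their groups, as read from correlations of log2 signals over 10693 genes at or above the median level. Uninduced replicate 1 correlated at 0.968, 0.954 and 0.955 with induced replicates 1, 2 and 3. With uninduced replicates 2 and 3 it correlated less, at 0.942 and 0.947, while those correlated at 0.990 with each other. Induced replicate 1 correlated at 0.967 and 0.969 with induced replicates 2 and 3, which correlated at 0.987 with each other. Mouse Jak2, whose probe set need not read the fusion, stood at -0.54 ± 0.41. No detection calls were used, so 21 measured liver and brain genes stood for silent genes, and 90% of their 126 values lay below a signal of 60.5. Mbp, whose signals of 694 to 1216 were well above the others, is among these 21. Its values raise the level of 60.5, by an amount that was not measured. The 12 measured pro-B markers had a median level of 5.25 on the log2 scale, against 5.25 for the silent genes, with Cd79b, a B cell receptor component, as an exception at a signal of 372 ± 69.2 in induced and 371 ± 55.5 in uninduced cells (SD, n = 3 each).

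Promoter sequences are shown for members whose differences between the groups ran from -3.71 (H2-Ob) to 1.32 (H2-Eb1). RefSeq promoter windows (GRCm38.p6) were matched for 5 of the 8 members: H2-Ob, H2-Oa, H2-Aa, H2-Eb1 and H2-DMa. In the first 4 of these a Y box core, TGATTGG, followed an X box core, GNAAC, with 23 to 26 bases between them. Both cores are in capitals, the sequences run 5′ to 3′ on the strand of the gene, and the motifs were picked after these promoters had been read.
H2-Ob: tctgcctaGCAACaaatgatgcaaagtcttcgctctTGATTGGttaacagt
H2-Oa: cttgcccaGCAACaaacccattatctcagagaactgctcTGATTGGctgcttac
H2-Aa: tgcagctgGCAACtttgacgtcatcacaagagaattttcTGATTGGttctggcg
H2-Eb1: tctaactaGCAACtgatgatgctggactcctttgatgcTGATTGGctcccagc

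They lie at chr17:34238810-34238860 (plus strand, H2-Ob), chr17:34092295-34092348 (plus strand, H2-Oa), chr17:34287859-34287912 (minus strand, H2-Aa) and chr17:34305768-34305820 (plus strand, H2-Eb1). The Y box core began 59, 45, 50 and 61 bases upstream of the annotated start of H2-Ob, H2-Oa, H2-Aa and H2-Eb1. Searched on both strands, TGATTGG occurred in 7.82% and GNAAC in 84.8% of all 32851 promoter windows of this length. The pair in this order on 1 strand, 20 to 35 bases apart, occurred in 0.426%. Neither of the 2 windows of H2-DMa held TGATTGG. The whole window of H2-Ob, the member with the largest difference, at chr17:34238655-34238954 (plus strand), is as follows.
H2-Ob promoter: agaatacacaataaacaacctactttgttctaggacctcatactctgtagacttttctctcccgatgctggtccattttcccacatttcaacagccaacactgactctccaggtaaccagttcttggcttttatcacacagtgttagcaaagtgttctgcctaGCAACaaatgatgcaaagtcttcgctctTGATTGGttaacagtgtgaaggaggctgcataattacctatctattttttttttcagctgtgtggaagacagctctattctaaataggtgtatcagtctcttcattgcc

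Both chains of H2-O were lower in induced cells, H2-Ob by far the more. The probe set of H2-Ob that stands for the gene gave signals of 185, 248 and 171 on induced replicates 1, 2 and 3, against 1177, 4845 and 3781 on uninduced replicates 1, 2 and 3. Every induced array lay below every uninduced one, and uninduced replicate 1 lay between the other uninduced arrays and the induced ones. The difference was -3.71 ± 0.52, a 13.0-fold lower value of signal + 16, and -4.32 without uninduced replicate 1. It was -2.57 between the arrays numbered 1, and -4.20 and -4.34 between those numbered 2 and 3. The shared probe set of H2-Ob, which the table also assigns to Gm20506, read 23.2, 60.3 and 61.6 in induced cells and 108, 302 and 324 in uninduced cells. Its difference was -1.95 ± 0.47, again with no overlap. Of all 18193 genes, each by 1 probe set, only 5 had a more negative difference than H2-Ob.

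H2-Oa, which encodes the partner chain, had signals of 799, 738 and 657 in induced cells and 1181, 1348 and 1332 in uninduced cells. The groups did not overlap, and the arrays within a group lay close together. The difference was -0.80 ± 0.18, and -0.86 without uninduced replicate 1. It was negative in all 3 same-numbered pairs of arrays, with -0.55 as the smallest in size. H2-DMa, the alpha chain of the peptide exchanger, had signals of 416, 145 and 133 in induced cells and 380, 423 and 245 in uninduced cells. Induced replicate 1 was level with the uninduced arrays and the other induced arrays were lower, so the groups overlapped. The difference was -0.71 ± 0.45, and -1.20 without induced replicate 1. A further H2-DMa probe set stayed at signals of 3.64 to 32.3, within the range of silent genes.

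The beta chain of H2-DM is not a member, and its brighter probe sets are shared between H2-DMb1 and H2-DMb2. Those 2 probe sets differed by -0.55 ± 0.22 and -0.69 ± 0.21, without overlap of the groups. At the stronger of them, induced cells had signals of 955, 767 and 631 and uninduced cells 1174, 1340 and 1275.

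**Figure D1:**
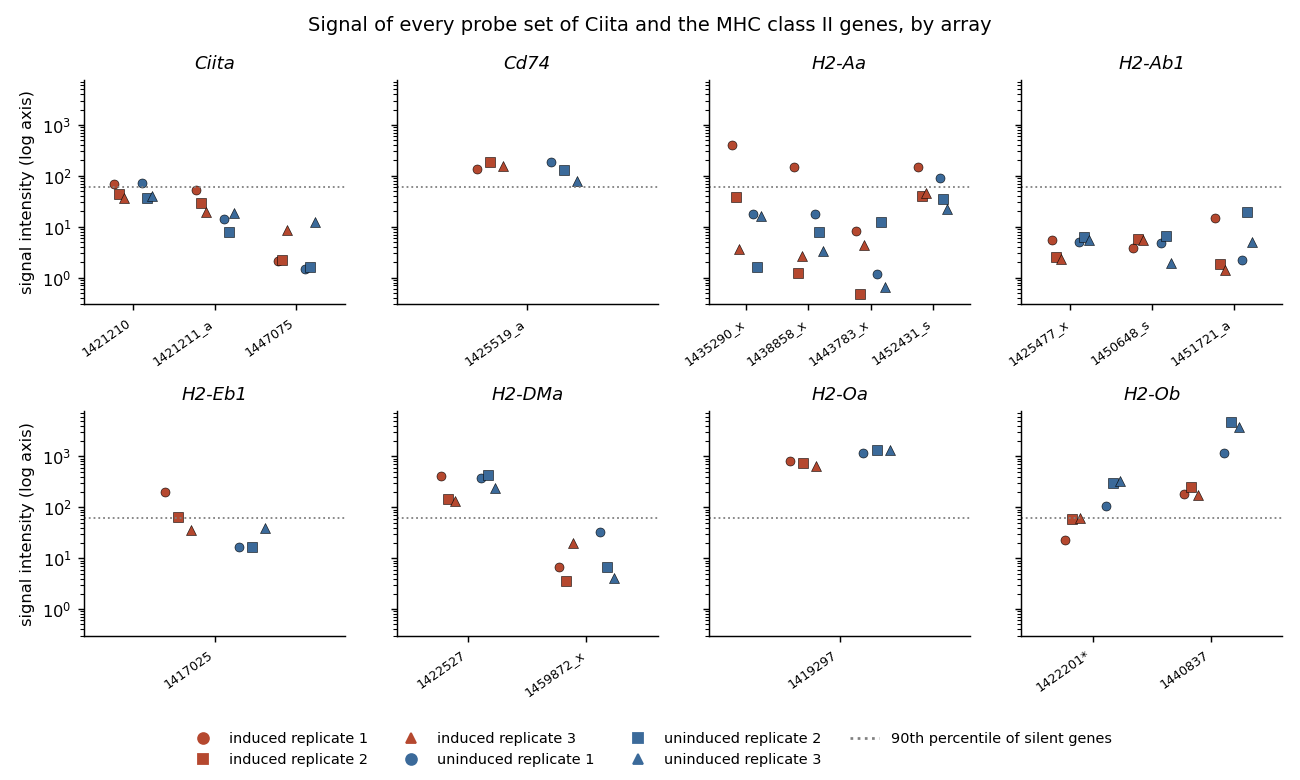
Signal of each of the 17 probe sets on each array (log axis), induced left of uninduced, with the replicate number as the symbol; the dotted line is the level below which 90% of the values of the silent genes lay, and an asterisk marks the shared probe set. H2-Ob and H2-Oa separate the groups, while most probe sets of Ciita, H2-Aa and H2-Ab1 lie under the line.

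Ciita stayed near the level of silent genes in both groups. Its brightest probe set had signals of 69.4, 44.1 and 37.3 in induced cells and 71.4, 36.2 and 40.2 in uninduced cells. The replicate 1 array was the highest of each group, and the difference was 0.03 ± 0.29. A dimmer Ciita probe set had 51.4, 29.3 and 19.6 in induced cells, against 13.8, 7.99 and 18.8 in uninduced cells. It was the 1 probe set of the 17 at which every induced array lay above every uninduced one, with a difference of 0.71 ± 0.29, but induced replicate 3 and uninduced replicate 3 differed by only 0.03, and all 6 values lay below 60.5. The remaining Ciita probe set ranged from 1.44 to 12.6.

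Cd74, the invariant chain, exceeded the silent level on all 6 arrays. Its signals were 135, 183 and 157 in induced cells and 188, 128 and 78.6 in uninduced cells. The groups overlapped, with a difference of 0.30 ± 0.31. Between the arrays numbered 1 it was -0.44, and between those numbered 2 and 3 it was 0.47 and 0.87.

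The classical chains, which form the peptide-presenting dimers, were above the silent level mainly on induced replicate 1. H2-Eb1, the I-E beta chain, had signals of 200.1, 66.0 and 35.9 in induced cells and 16.5, 16.5 and 40.0 in uninduced cells. Its difference was 1.32 ± 0.54, and 0.74 without induced replicate 1. H2-Aa, the I-A alpha chain, had 149, 39.8 and 46.3 in induced cells and 89.1, 35.6 and 22.5 in uninduced cells at its brightest probe set. In both groups replicate 1 was the highest, and the difference was 0.48 ± 0.53, or -0.01 without induced replicate 1. Another H2-Aa probe set gave 397 on induced replicate 1, then 38.8 and 3.64 on induced replicates 2 and 3, against 17.8, 1.63 and 15.9 in uninduced cells. A further probe set gave 149, 1.25 and 2.61 in induced cells and 18.1, 7.69 and 3.36 in uninduced cells. The last one ranged from 0.474 to 12.5. H2-Ab1, the I-A beta chain, had 3 probe sets with signals from 1.39 to 19.7, all within the range of silent genes, and differences of -0.17 to 0.05. H2-Ea, the I-E alpha chain and not a member, had 171, 3.70 and 35.6 in induced cells at its brightest probe set. In uninduced cells that probe set read 41.6, 19.1 and 6.17, so induced replicate 1 was the highest. A dimmer H2-Ea probe set gave 34.7, 9.85 and 9.31 in induced cells and 12.6, 7.46 and 15.1 in uninduced cells. At a further one induced replicate 1 was the lowest, with 2.56, 3.20 and 18.8 in induced cells. Its uninduced signals were 17.8, 16.3 and 27.0.

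Counted over the members, 4 of the 17 probe sets exceeded a signal of 60.5 on all 6 arrays, 7 on none and 6 on some. The 4 belonged to Cd74, H2-DMa, H2-Oa and H2-Ob. The groups did not overlap at 3 probe sets that were lower in induced cells and at 1 that was higher, where the shares over all probe sets were 11.2% and 9.35%. With 1 probe set a gene, 2 of the 8 members were lower without overlap, H2-Oa and H2-Ob, beside 13.4% of all genes, and 0 were higher, beside 10.7%. Nothing is read from these counts, since the same contrast was known when the members were chosen. The median difference of the 8 was -0.07, with 4 positive and 4 negative, beside -0.06 over all genes. Without induced replicate 1 it was -0.30, with 2 positive and 6 negative, beside -0.09 over all genes.

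**Figure D2:**
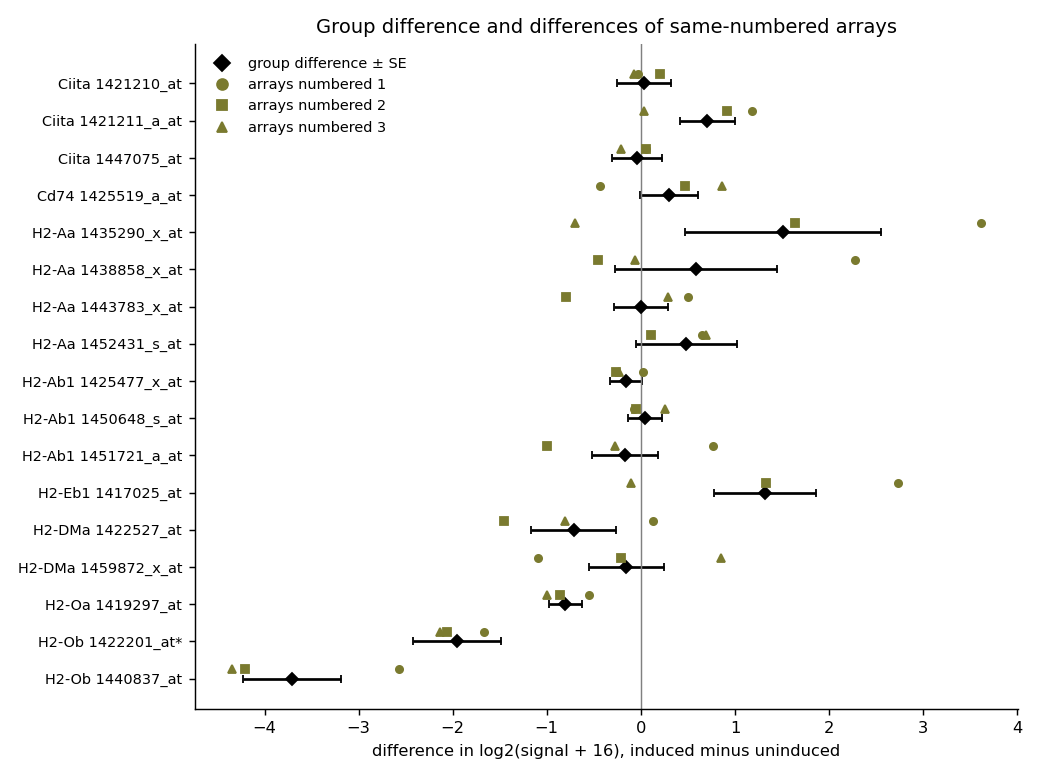
Difference in log2(signal + 16), induced minus uninduced, for each probe set: diamonds with bars give the group difference ± SE, and the smaller symbols above them the difference between arrays of the same replicate number. At both H2-Ob probe sets and at H2-Oa all 3 same-numbered differences are negative, whereas at H2-Eb1 they run from -0.11 to 2.73.

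The members neighbour each other on chromosome 17, except Ciita and Cd74, and the genes between H2-Oa and H2-Eb2 did not move as a block. Of 14 protein-coding genes there, 13 had a probe set of their own. At 3 of them the induced arrays all lay lower (H2-Oa, H2-Ob and Tap2), at 2 all higher (Psmb9 and Psmb8), and at 8 the groups overlapped. Among the 8 is H2-DMb2, counted by a dim probe set of its own (signals of 24.8 to 80.3). The brighter probe sets it shares with H2-DMb1, lower without overlap at -0.55 and -0.69, are not in this count. H2-Ob, at -3.71, stands between Tap2, a peptide transporter subunit for MHC class I (-0.40 ± 0.16), and H2-Ab1 (-0.17). Psmb9 and Psmb8, immunoproteasome subunits, stood at 0.68 ± 0.18 and 0.40 ± 0.16. Brd2, a chromatin reader between H2-Oa and H2-DMa, stood at 0.08 ± 0.18.

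**Figure D3:**
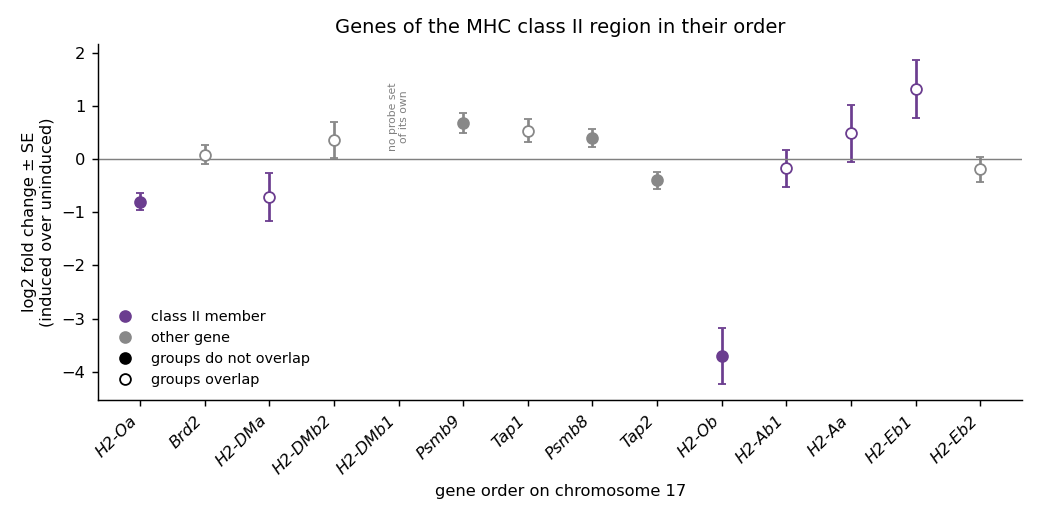
Log2 fold change ± SE of the genes from H2-Oa to H2-Eb2 in their order on chromosome 17 (1 probe set each, spacing not to scale); filled points mark genes whose groups did not overlap. H2-Ob lies at -3.71, and its neighbours Tap2 and H2-Ab1 lie at -0.40 and -0.17.

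Outside the members, 60 genes of antigen presentation and its control were measured, and 1 of them passed in limma (two-sided, Benjamini-Hochberg over all 18193 genes, adjusted p under 0.05). Over all genes 0.187% passed, 0.115% as higher and 0.0715% as lower. The gene that passed was Irf1, the transcription factor that acts on the Ciita promoter. Irf1 had signals of 3935, 3990 and 2864 in induced cells, against 899, 621 and 673 in uninduced cells. It rose by 2.28 ± 0.22 (adjusted p = 0.0396). With the replicate number as a block the adjusted p in limma was 0.198, with a pseudocount of 1 it was 0.0986, and leaving out any 1 array other than uninduced replicate 1 it was 0.0960 to 0.233. A further 13 of the 60 had an unadjusted p under 0.05, where 17.4% of all genes did, so nothing is read from that count. Socs1, the inhibitor of JAK kinases, stood at 1.39 ± 0.21 (adjusted p = 0.0823 in limma), and the other 12 measured regulators of Ciita did not pass either. Among them Spi1, the myeloid and B cell factor PU.1, stood at -0.78 ± 0.49, and at -1.31 without uninduced replicate 1. Pax5, the B lineage factor, had signals of 23.8, 40.0 and 59.3 in induced cells and 124, 33.7 and 58.7 in uninduced cells. Only uninduced replicate 1 exceeded 60.5, and the difference of -0.54 ± 0.43 was -0.14 without it.

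The factors that bind class II promoters differed little. Their 7 measured genes ranged from -0.29 (Nfya, of the Y box binding complex NF-Y) to 0.28 (Nfyc), with 0 past the threshold in limma and 0 at an unadjusted p under 0.05. Rfx5, Rfxap and Rfxank, subunits of the X box binding complex RFX, stood at -0.05 ± 0.15, -0.22 ± 0.21 and -0.02 ± 0.23. None of the 6 measured CIITA cofactors passed in limma, and 1 had an unadjusted p under 0.05, the histone methyltransferase gene Ezh2 at 0.69 ± 0.18. The class I genes, given for comparison, had 0 of 7 past the threshold in limma. In limma 7 of 7 had an unadjusted p under 0.05, 6 higher and 1 lower (Tap2), where 17.4% of all genes did. Nothing is read from that count, since the gene lists were chosen with earlier results of these data known. Nlrc5, the class I counterpart of Ciita, had signals of 2028, 1952 and 1732 in induced cells and 637, 189 and 163 in uninduced cells, a difference of 2.73 ± 0.49 (adjusted p = 0.0977 in limma).

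Of the 10 endosomal processing genes 0 passed in limma and 2 had an unadjusted p under 0.05. Ctss, the cathepsin that trims the invariant chain, had signals of 34.5, 624 and 601 in induced cells and 38.8, 21.6 and 14.4 in uninduced cells. Induced replicate 1 was level with the uninduced arrays and the others were far above them, so the difference was 2.77 ± 0.99, with an adjusted p in limma of 0.233, and 3.98 ± 0.29 without induced replicate 1 (adjusted p = 0.0436). Lgmn, the asparaginyl endopeptidase of lysosomes, had 172, 96.2 and 121 in induced cells and 633, 312 and 231 in uninduced cells, a difference of -1.40 ± 0.39 (adjusted p = 0.170 in limma). Ifi30, the lysosomal thiol reductase, stood at -0.23 ± 0.20 and Ctsd, cathepsin D, at -0.84 ± 0.37. The 9 trafficking and turnover genes had 0 past the threshold in limma and 2 at an unadjusted p under 0.05, both lower: Lamp1 (-1.72 ± 0.30) and the tetraspanin gene Cd82 (-0.68 ± 0.17). Marchf8, a ubiquitin ligase that acts on class II, stood at 0.00 ± 0.15. The 4 genes of CD74's ligand and partners had 0 past the threshold in limma and 0 at an unadjusted p under 0.05, with Mif, the cytokine that CD74 binds, at -0.54 ± 0.23. The 3 other class II genes with a probe set of their own also had 0 and 0, with the shared probe sets of H2-DMb1 and H2-DMb2 left out. Without uninduced replicate 1 the count over the 60 genes was 11 in limma, 5 higher (Irf1, Nlrc5, Socs1, Ezh2 and B2m) and 6 lower (Lamp1, Ctsd, Cd82, Jak2, Mif and Cd44), beside 7.99% of all genes (3.22% as higher and 4.77% as lower).

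**Figure D4:**
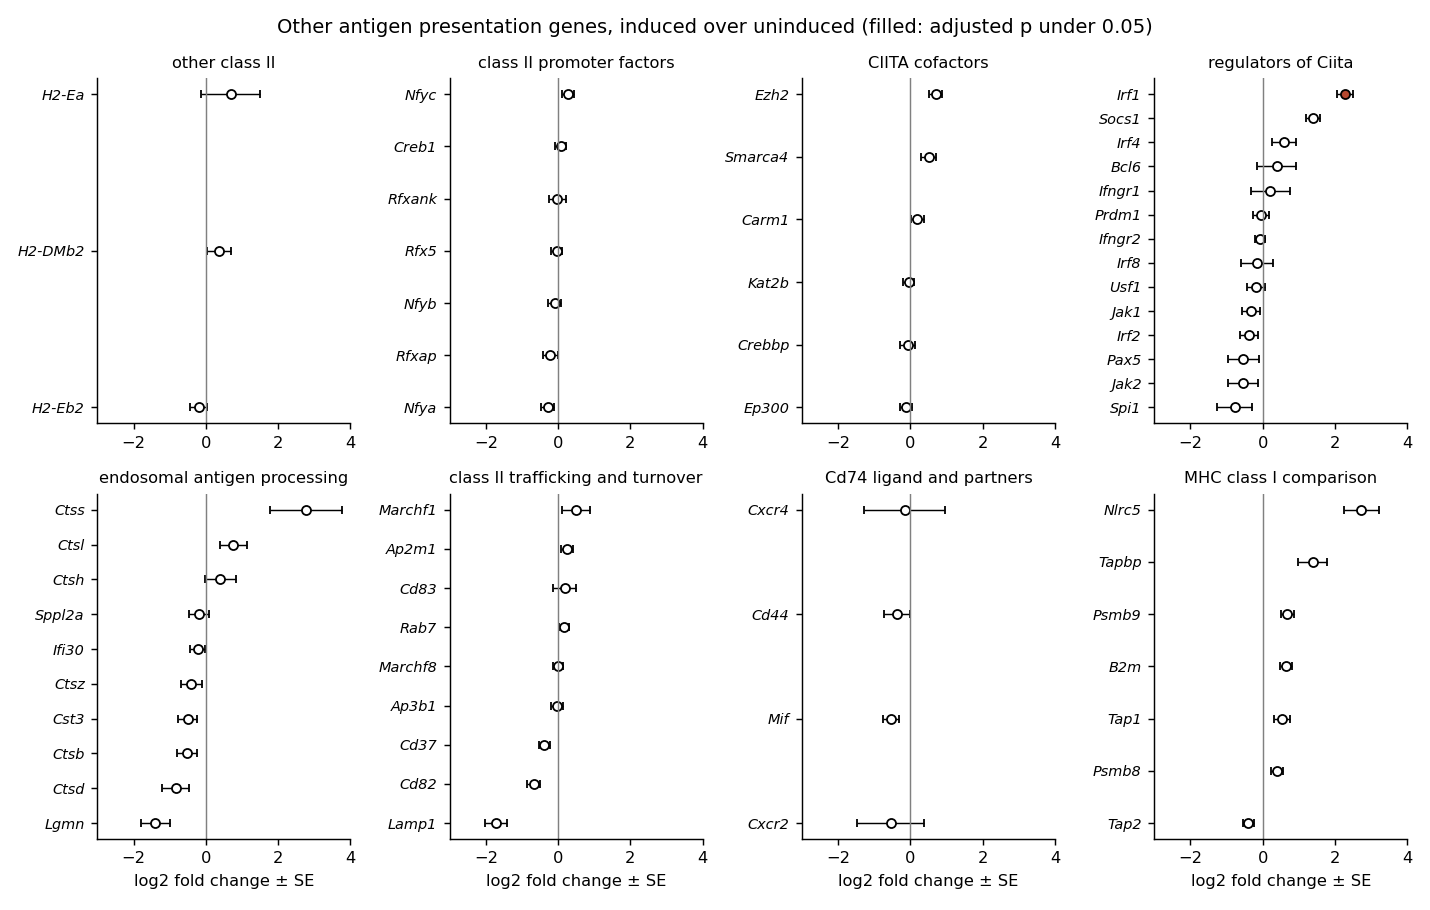
Log2 fold change ± SE (induced over uninduced) of the 60 measured genes outside the members, 1 panel for each list; a filled point marks an adjusted p under 0.05 in limma. Irf1 is the 1 filled point, while the promoter-binding factors lie between -0.29 and 0.28.

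Markers of other class II bearing cells were read on the same arrays. The summed signal of 9 macrophage markers was 522 to 798 on induced and 1582 to 2303 on uninduced arrays, the same direction as H2-O. Single markers did not all run that way. Adgre1, the F4/80 antigen, had 112, 286 and 370 in induced cells against 521, 1674 and 1497 in uninduced cells, and Csf1r, the receptor of macrophage growth factor, stood at -1.23 ± 0.44. Adgre1 alone gave 1674 of the sum of 2303 on uninduced replicate 2, and 1497 of 2225 on uninduced replicate 3. Fcgr1, a high-affinity receptor for IgG, had 227, 232 and 209 in induced cells and 809, 87.5 and 155 in uninduced cells, so the groups overlapped (-0.04 ± 0.73) and it gave 809 of the sum of 1582 on uninduced replicate 1. Mrc1, the mannose receptor, was higher in induced cells without overlap (0.85 ± 0.34), with all 6 signals below 60.5. C1qa and C1qc, subunits of complement C1q, did not exceed 5.45 on any array, while C1qb reached 49.8, Mertk 45.6 and Cd14 94.0. In limma 0 of the 9 passed, and 1 higher and 2 lower had an unadjusted p under 0.05. The sums overlapped between the groups for 7 dendritic cell markers (166 to 271 induced, 188 to 414 uninduced), for 5 mature B markers (121 to 237 induced, 105 to 266 uninduced) and for 12 pro-B markers (514 to 744 induced, 658 to 782 uninduced). The part of any of these cells in the values of H2-Oa and H2-Ob was not tested.

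Likeness of pattern was measured as the mean absolute difference between profiles of log2(signal + 16) over the 6 arrays, each centred on its own mean, among genes at or above the median level. The 5 genes most like Ciita were Czib (0.0243), Gon4l, A930005H10Rik, Rsu1 and 1810013L24Rik (0.0627). The Ciita profile they were set against exceeded a signal of 60.5 on the replicate 1 array of each group alone, so these distances are to a profile mostly within the range of silent genes. The 5 most like H2-Oa, the member with the highest mean level on the log2 scale, were Gpx4 (0.0422), Trim46, Scamp5, Aftph and Lpp (0.0555), with differences of -0.86 to -0.70. The 5 nearest H2-Ob, a comparison added after its values were seen, were Scd3 (0.136), Bnip3, Matn1, Ndrg1 and Padi2 (0.478). Scd3 stood at -3.77, with log2 values of 6.68, 6.97 and 6.91 in induced cells and 9.43, 11.29 and 11.14 in uninduced cells.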

How the data were processed

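The deposited values are signal intensities on a linear scale, made with Affymetrix Expression Console 1.4.1 per the submitters' processing notes. The sources used here do not name the summary algorithm. The 2% trimmed mean of every array was 500. Of 45101 probe sets 64 controls were left out, and the platform table gave 1 symbol for 34945, several for 932 and none for 9160. For tests the probe set with the highest mean stood for each of 18193 genes. log2(signal + 16) was compared with limma 3.58.1 (lmFit and eBayes, Benjamini-Hochberg adjustment over all 18193 genes, 4 residual degrees of freedom) in R 4.3.3, and the SE of member probe sets came from the same fit over 45037 probe sets. With 3 arrays a group an exact permutation test reaches 0.10 at best, so none was run. The number of arrays limits the precision. The procedure was tested on simulated data in which all arrays were drawn independently. Its behaviour with an array that stands apart, or with paired arrays, was not tested.

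Deviations from the group means correlated at 0.30, 0.15 and 0.22 between the induced and uninduced arrays numbered 1, 2 and 3. The labels do not say that arrays of the same number belong together. Arrays of different numbers were not compared in this way, so pairing was not tested. The main test did not use the replicate numbers. Members, gene lists and alternatives were chosen with earlier results of these data known. The text names all members, list genes that passed or illustrate a list, and the 5 genes nearest in pattern. Lists were also read for T cell and Ba/F3 markers, whose sums overlapped between the groups (202 to 689 induced and 160 to 376 uninduced, and 31847 to 47990 induced and 28000 to 44904 uninduced). Figures were drawn with matplotlib 3.10.9.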

Additional observations from a re-analysis of the deposited data

How the results depend on the processing

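Over 17 alternatives H2-Ob ranged from -4.32 to -3.31, H2-Oa from -0.93 to -0.73, H2-DMa from -1.20 to -0.43, H2-Eb1 from 0.61 to 1.77 and Cd74 from 0.02 to 0.67, all with their own sign. Ciita (-0.17 to 0.71), H2-Aa (-0.01 to 1.52) and H2-Ab1 (-0.64 to 0.12, 16 alternatives) changed sign in 3, 1 and 1 of them. Several alternatives cannot move a gene's difference: the replicate block, a batch term for replicate 1, the filter, and trended and robust variance. Nor can the choice of probe set for Cd74, H2-Eb1, H2-Oa and H2-Ob, each with 1 probe set of its own. Equal signs under these settings say nothing on how stable a difference is. The shared probe set of H2-Ob, at -1.95 ± 0.47, was used in no alternative and lies outside the range of -4.32 to -3.31. The median of the members (-0.07) ranged from -0.30 to 0.07, and was -0.30 without induced replicate 1, with 2 positive and 6 negative. The count over all genes (34) was 0 with the replicate number as a block, 0 with a pseudocount of 1 (3269 and 2816 unadjusted), 252 with a pseudocount of 64, 342 with the filter, 19 with the most variable probe set, 550 with trended and robust variance and 1477 without both replicate 1 arrays. The count over the 60 genes (1) was 0 with the block, 0 with a pseudocount of 1 (18 and 11 unadjusted), 4 with a pseudocount of 64, 4 with the filter, 7 with trended and robust variance and 12 without both replicate 1 arrays. Leaving out 1 array at a time gave 0 to 1453 genes and 0 to 11 of the 60. The filter tests fewer genes, and the cause of the other changes was not tested. Most member probe sets are too dim for a fold to be read: the H2-Aa probe set with a signal of 397 on induced replicate 1 read 1.63 on uninduced replicate 2.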
